A study of Mus musculus with 6 samples.

Results

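Translation initiation factors (eIF) and elongation factors (eEF) are the proteins that load messenger RNA and initiator tRNA onto the ribosome and move the ribosome along the message. Their genes were taken as every row of the 6 per-library files whose symbol begins with Eif and a digit from 1 to 6, or with Eef and 1 or 2. This gave 64 genes of 23099 symbols, of which 56 averaged 1 or more across the 6 libraries and were tested among 8802 genes. The rule also takes in 4 Argonaute genes under their older names Eif2c1 to Eif2c4, which act in RNA silencing and not in initiation, and the 4 kinases that phosphorylate eIF2. Pancreas was taken at 8 weeks of age, giving 3 libraries of wild-type mice (WT) and 3 of Ela1-Myc mice. Ela1-Myc mice carry Myc, a transcription factor gene that drives growth and division, under the promoter of elastase 1, which acinar cells, the makers of digestive enzymes, express. Myc itself was at 0, 4.10 and 0 in WT against 52.0, 34.4 and 34.2 in Ela1-Myc, on the scale explained below. In bulk RNA, fewer cells of a type and less RNA per cell cannot be told apart. The labels do not say that each library is a different mouse, and p-values then measure only the spread between these samples, which may be technical.

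Initiation starts at the 5′ cap of the message. eIF4E binds the cap, eIF4G joins it to the RNA helicase eIF4A, and the 3 together form eIF4F, while the 4E-binding proteins hold eIF4E back from eIF4G. eIF2 brings the initiator tRNA to the small ribosomal subunit, eIF2B recharges eIF2 with GTP, and eIF3 bridges the small subunit and eIF4F. Acinar cells of the pancreas have one of the highest rates of protein synthesis known in mammals, and genes of translation, Eif4e among them, are known targets of MYC in other cells.

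Values are the authors' adjusted FPKM (a read abundance corrected for transcript length and library size) divided by 100000, called the deposited scale here. An exact 0 is not taken as absence: among the 8802 tested genes, 592 to 1426 were listed at 0 in a WT library and 0 to 29 in an Ela1-Myc library. In the text, genes with a listed 0 are given by library, without a mean or a fold. The exception is Eif2s3y in the closing section, where the size of its change depends on the constant added before the log. A list of 36 digestive enzyme and secretory genes made up 91.9% to 93.4% of the summed values in WT and 62.5% to 74.7% in Ela1-Myc. On the deposited scale the median tested gene shifted up by 1.22 log2 units in Ela1-Myc. Each result is therefore also given on the median-of-ratios scale, where each library is divided by a size factor taken over the 6995 tested genes above 0 in all 6 libraries, and where the median gene lay at 0.24. The RNA integrity number was 7.3, 7.3 and 7.1 in WT and 8.8, 7.2 and 8.3 in Ela1-Myc. All 6 acinar markers were above 0 in all 6 libraries. Of these Cela1 and Pnlip were lower in every Ela1-Myc library than in every WT library on the deposited scale, and the other 4 overlapped. For other cell types the summed level of 4 macrophage markers was 0 to 43.7 in WT and 229 to 795 in Ela1-Myc, with Cd68 at 0 in all 3 WT libraries, and that of 5 stellate cell markers was 4.02 to 36.4 and 255 to 340. The sums were 7.78 to 12.3 and 19.3 to 24.6 for 3 endothelial markers, and 4.44 to 17.3 and 19.5 to 30.2 for 4 duct markers, 3 of which were higher in every Ela1-Myc library. The sums overlapped for islet markers, at 0 to 2458 and 2408 to 3305, and for lymphocyte markers, at 0 to 25.1 and 10.8 to 92.1. All 3 markers of dividing cells were at 0 in WT and summed to 13.3 to 23.6 in Ela1-Myc. The part of these markers in the results on translation factors was not tested.

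Translation factor genes as a group moved with the bulk of the genes. Of the 56 tested members 37 rose in Ela1-Myc on the deposited scale (66.1%), none fell and 19 did not pass (limma, Benjamini-Hochberg adjusted over all 8802 genes), while 70.2% of all tested genes rose and 0.239% fell. No member lay lower at an unadjusted p under 0.05 either. The median member lay 1.60 log2 units higher, against 1.22 for the median of all tested genes. All 3 Ela1-Myc values exceeded all 3 WT values for 45 members, and 75.3% of all tested genes did the same; the reverse held for no member and for 0.534% of all tested genes. On the median-of-ratios scale 4 members were higher and 1 was lower, with a median of 0.31, while 18.1% of all tested genes were higher and 7.95% lower. The number of members called higher on the deposited scale changed when 1 library was left out. It was 24 of 57 tested without WT replicate 1, 21 of 54 without Ela1-Myc replicate 3 and 54 of 57 without WT replicate 2. Of all tested genes 58.7%, 49.5% and 81.1% were called higher in these settings. A setting without both WT replicates 1 and 3 was added after the data had been seen. There the lone WT library is assumed to vary like the Ela1-Myc libraries.

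The members called higher after scaling were Eif2s1, Eif2s3x, Eif4a1 and Eif6, and each was listed at 0 in at least 1 WT library. The member called lower was Eif4ebp1, which was above 0 everywhere. Among the 47 tested members above 0 in all 6 libraries, 29 rose on the deposited scale (61.7%, against 63.5% of all genes of that kind). After scaling 0 of the 47 were higher and 1 was lower, against 7.63% and 10.0% of all genes of that kind. A separate fit held only the genes above 0 in all 6 libraries. It called 3 of the 47 higher and 1 lower after scaling, against 10.5% and 11.2% of all genes fitted. On the deposited scale it called 35 higher and 0 lower, against 68.7% and 0.429%. In the main fit after scaling, 7 of the 47 were higher at an unadjusted p under 0.05, against 1134 of all 6995 genes of that kind. At that unadjusted level 15 of the 56 were higher and 1 was lower, against 28.6% and 13.1% of all tested genes. A gene near 0 in WT can reach a mean of 1 only by being high in Ela1-Myc, which leaves its direction little freedom.

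**Figure D1:**
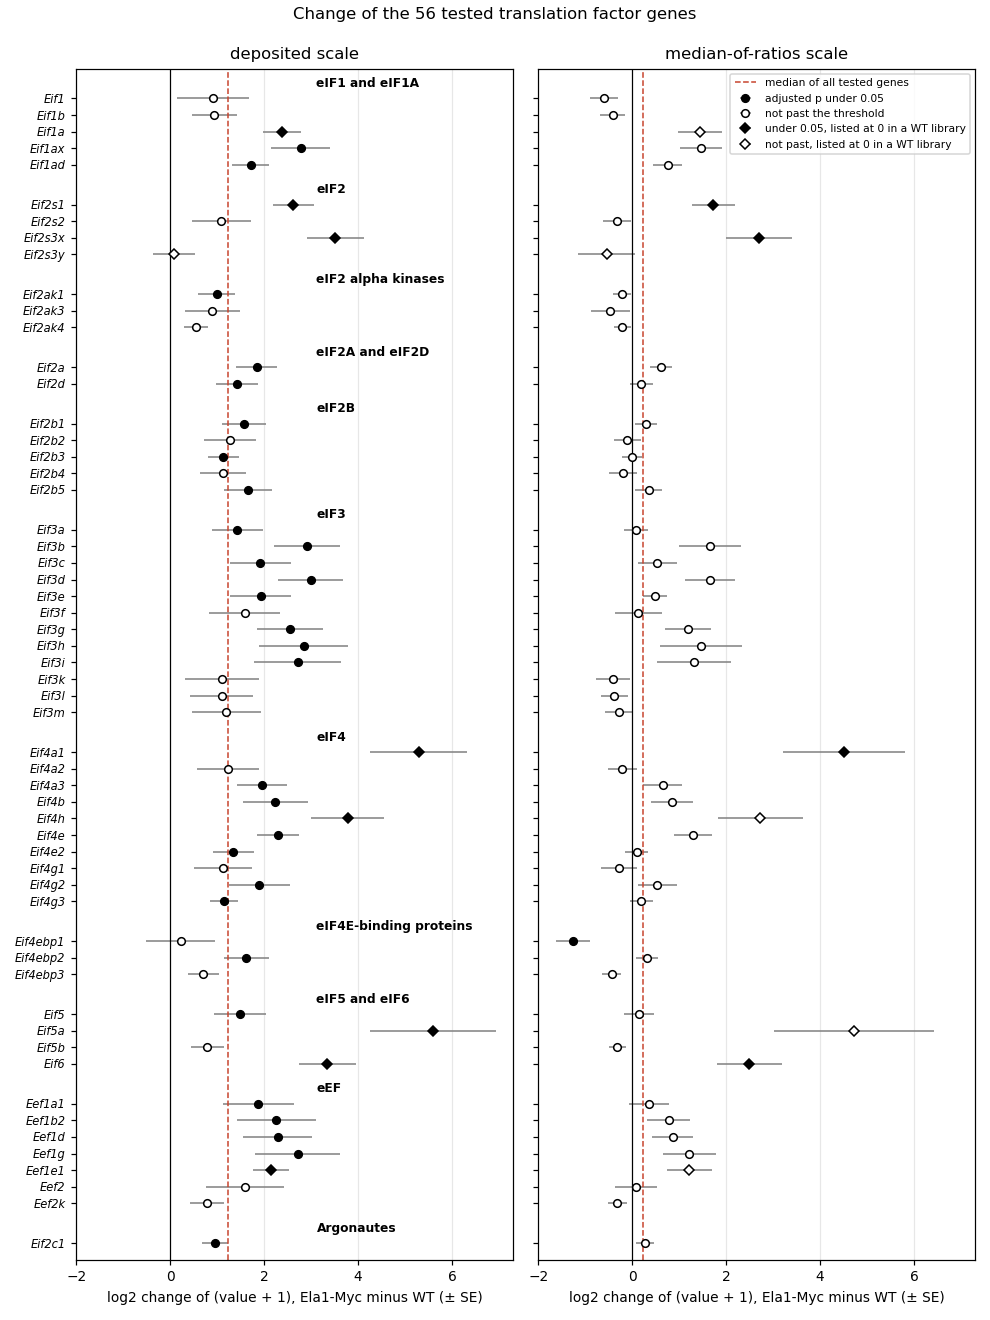
Log2 change of log2(value + 1) with its standard error for the 56 tested genes, by complex, on the deposited scale (left) and the median-of-ratios scale (right); filled symbols passed an adjusted p of 0.05 and diamonds mark genes listed at 0 in a WT library, whose size of change is set by the pseudocount. On the left most genes lie around the dashed median of all tested genes at 1.22, and on the right only 5 symbols are filled, 4 of them diamonds.

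Eef1a1, the factor that brings aminoacyl-tRNA to the ribosome, stood highest in every library, and the summed eEF genes made up 60.5% to 70.4% of the summed member values in WT and 64.2% to 69.3% in Ela1-Myc. The members together took 1.34%, 2.35% and 1.65% of the summed values outside the 36 enzyme genes in WT, and 2.46%, 2.23% and 2.25% in Ela1-Myc. WT replicate 2 lay inside the Ela1-Myc range in this share, while WT replicates 1 and 3 lay below it. Because FPKM is a value per length of transcript, levels can be set beside each other between genes, as far as the authors' adjustment keeps that property.

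**Figure D2:**
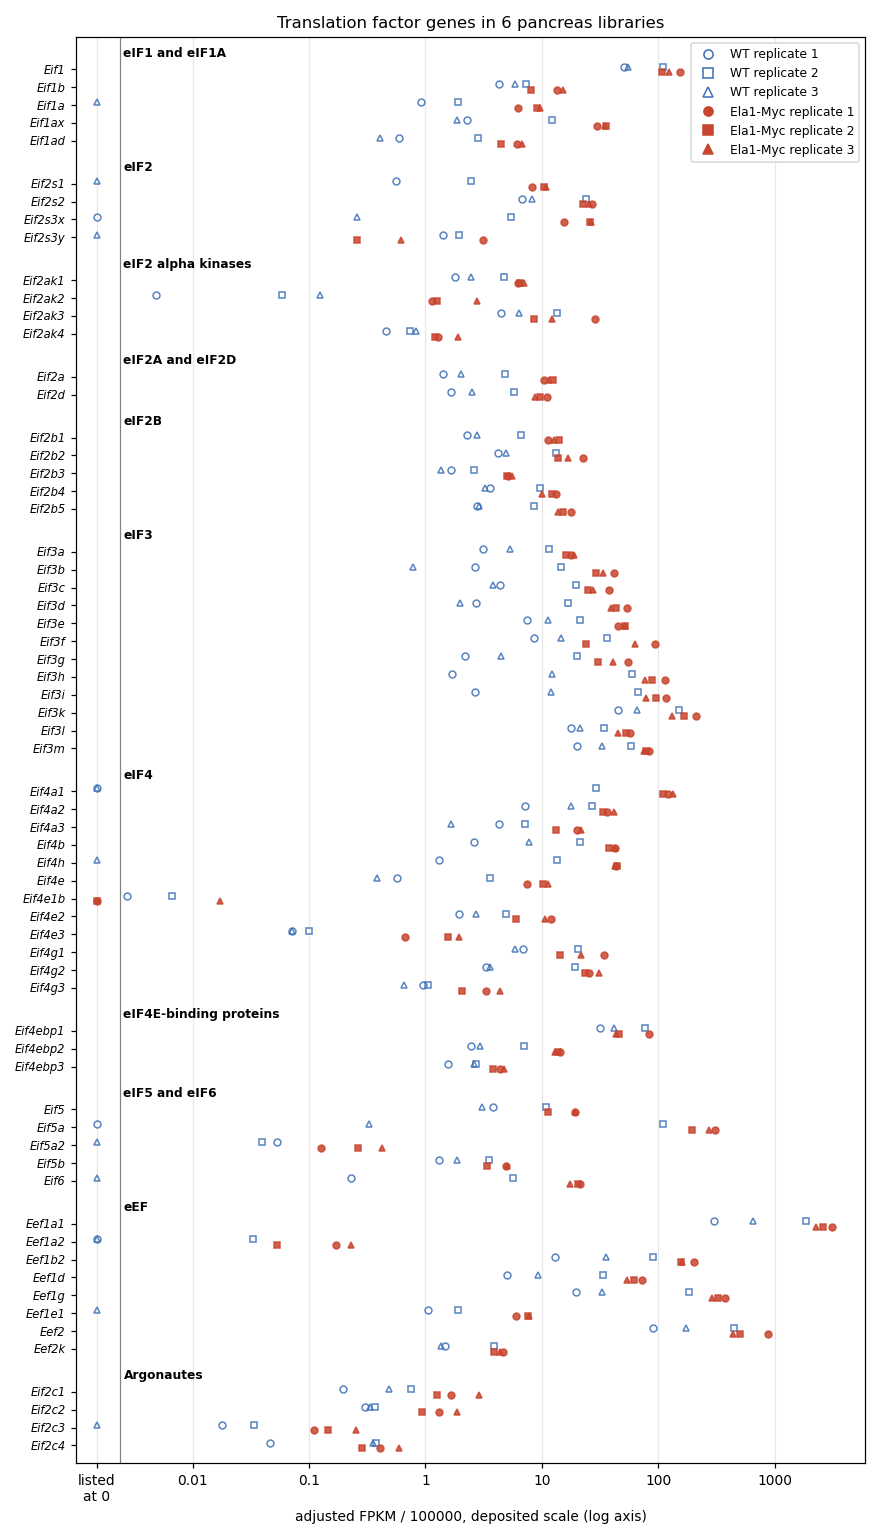
Adjusted FPKM divided by 100000 (log axis) of all 64 genes in each library, open blue for WT and filled red for Ela1-Myc, with values listed at 0 in the strip at the left. Eef1a1 stands at 299 to 3117, and the Argonaute genes reach at most 2.87.

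Eif4ebp1 (chromosome 8, 27260327 to 27275656, GRCm38), which encodes the 4E-binding protein 4E-BP1, was at 31.7, 76.4 and 41.8 in WT replicates 1 to 3 and at 83.6, 45.9 and 43.0 in Ela1-Myc replicates 1 to 3. On this scale the groups overlapped, with a log2 change of 0.23 ± 0.733 (SE; limma adjusted p = 0.777), under the shift of the median gene. On the median-of-ratios scale Eif4ebp1 was at 78.1, 81.7 and 77.1 in WT against 50.01, 30.4 and 22.4 in Ela1-Myc. Every Ela1-Myc library was then below every WT library, as was the case for 17.2% of all tested genes. The scaled means were 79.0 ± 2.42 and 34.3 ± 14.2 (SD, n = 3 each). The scaled log2 change was -1.26 ± 0.360 (SE; limma adjusted p = 0.0441). That call rests on all libraries but Ela1-Myc replicate 1: the adjusted p was 0.0800, 0.0760 and 0.0886 without WT replicate 1, 2 or 3, 0.134 and 0.123 without Ela1-Myc replicate 2 or 3, and 0.0199 without Ela1-Myc replicate 1.

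Eif4e (chromosome 3, 138526191 to 138557599), the cap-binding protein itself, rose on the deposited scale. It was at 0.571, 3.61 and 0.383 in WT against 7.53, 10.2 and 11.4 in Ela1-Myc, with no overlap. Its log2 change was 2.30 ± 0.455 (SE; limma adjusted p = 0.000748), and 1.30 ± 0.396 after scaling, where it just missed the threshold (adjusted p = 0.0523). With the enzyme genes left out and equal totals Eif4e passed (limma adjusted p = 0.0453), and with quantile normalization it did not (0.0607). Dividing 1 gene by the other within a library takes out any scale of that library. The ratio of Eif4ebp1 to Eif4e was 55.6, 21.1 and 109 in WT and 11.1, 4.49 and 3.79 in Ela1-Myc. The WT ratios of 55.6 and 109 rest on Eif4e at 0.571 and 0.383, low values that enter them directly. All Ela1-Myc ratios lay below all WT ratios, by 8.79-fold on the mean log2 ratio (-3.14, and -3.76 without WT replicate 2 or -2.58 without WT replicate 3; exact permutation test, two-sided, p = 0.1, which is the lowest value possible with 3 against 3 libraries; 0.333 adjusted over 10 ratios).

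Eif4ebp2 was at 2.46, 7.02 and 2.93 in WT against 14.2, 13.8 and 13.0 in Ela1-Myc. It rose by 1.62 ± 0.475 log2 units (SE; limma adjusted p = 0.0083), and the change after scaling was 0.32 (adjusted p = 0.33). Eif4ebp1 exceeded Eif4ebp2 by 12.9, 10.9 and 14.3 times in WT and by 5.87, 3.33 and 3.30 times in Ela1-Myc, again without overlap (exact two-sided permutation p = 0.1; 0.333 adjusted over 10 ratios). Eif4ebp3 was at 1.56, 2.71 and 2.59 in WT against 4.35, 3.82 and 4.75 in Ela1-Myc, and it passed on neither scale (limma adjusted p = 0.0693; 0.159 after scaling, where all Ela1-Myc values lay below all WT values).

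In the helicase arm of eIF4F, Eif4a1 was listed at 0 in part of the WT libraries. Eif4a1 (chromosome 11, 69666936 to 69672423), the main eIF4A helicase, was at 29.2 in WT replicate 2, at 0 in WT replicates 1 and 3, and at 121.9, 109.3 and 133.4 in Ela1-Myc. It passed on both scales (limma adjusted p = 0.000675; 0.0446 after scaling), with the zeros taken as measured values, and after scaling it did not pass without WT replicate 1 or 3 or without any one Ela1-Myc replicate (adjusted p from 0.0919 to 0.133). Its paralog Eif4a2 was above 0 in every library, at 7.11, 26.8 and 17.8 in WT against 36.4, 33.7 and 41.5 in Ela1-Myc, and it passed on neither scale (adjusted p = 0.105 and 0.635). Eif4a1 thus stood at 1.09 times Eif4a2 in WT replicate 2 and at 3.35, 3.24 and 3.22 times in the Ela1-Myc libraries. Processed copies of Eif4a1, Eif5a and Eef1a1 lie elsewhere in the mouse genome, and how reads shared with them were counted is not stated in the labels or headers.

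Both helicase stimulators were called higher on the deposited scale, as were 70.2% of all tested genes. Eif4h was at 1.30, 13.5 and 0 in WT against 43.1, 44.6 and 42.4 in Ela1-Myc (limma adjusted p = 0.000941; 0.0653 after scaling). Eif4b was at 2.60, 21.3 and 7.83 in WT against 42.7, 37.7 and 42.7 in Ela1-Myc (limma adjusted p = 0.0110; 0.189 after scaling). The Ela1-Myc libraries lay close together for Eif4h, while the WT libraries spread from a listed 0 to 13.5.

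Eif4g1, which joins eIF4E and eIF4A, was at 6.91, 20.6 and 5.92 in WT against 34.1, 14.4 and 21.8 in Ela1-Myc, with overlap and no call on either scale (limma adjusted p = 0.115 and 0.608). Eif4g2, whose product DAP5 lacks the eIF4E-binding site and serves initiation away from the cap, was at 3.30, 19.4 and 3.63 in WT against 25.6, 23.4 and 31.0 in Ela1-Myc. It rose by 1.89 log2 units (limma adjusted p = 0.0183) and did not pass after scaling (0.362). The deposited-scale call was lost without WT replicate 1 or 3 or Ela1-Myc replicate 1 or 3 (adjusted p from 0.0600 to 0.0825). The ratio of Eif4g2 to Eif4g1 overlapped between the groups, at 0.478, 0.939 and 0.612 in WT and 0.752, 1.63 and 1.42 in Ela1-Myc (permutation test, exact, two-sided, p = 0.2; 0.5 adjusted over 10 ratios). In all, 8 of the 10 tested eIF4 genes rose on the deposited scale, Eif4a3, Eif4e2 and Eif4g3 among them, and 1 did after scaling, against 70.2% and 18.1% of all tested genes. Eif4g3 averaged under 1 in WT and passed the filter through the Ela1-Myc libraries, which leaves its direction little freedom.

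Promoter sequence was examined because the canonical E-box CACGTG is the DNA site of MYC with its partner MAX. RefSeq promoters (GRCm38.p6, 250 bases before to 50 after each start) were found for 50 of the 64 genes, 3 of them by a synonym. CACGTG, which reads the same on both strands, occurred in 12 of the 50 (24.0%), against 12.5% of 6318 tested genes with a promoter and 8.09% of all 27025 symbols. The genes were Eif1b, Eif3a, Eif3f, Eif3k, Eif4a1, Eif4e, Eif4g1, Eif4h, Eif5a, Eif5a2, Eef2 and Eef2k. No binding was measured, so each match describes the letters only. The windows below are the matches before the start in eIF4 genes, Eef2 and 1 of those in Eif5a, shown because these genes carry the contrasts of the text, with the E-box in capitals and each window read 5′ to 3′ along the gene. The RefSeq start of Eif4e lies inside the gene's span in the files.
Eif4e, chr3:138527018-138527077, plus strand, 228 bases before the start: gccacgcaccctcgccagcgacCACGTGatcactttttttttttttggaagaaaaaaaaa
Eif4e, chr3:138527177-138527236, plus strand, 64 before the start: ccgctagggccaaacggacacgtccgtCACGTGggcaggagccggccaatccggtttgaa
Eif4a1, chr11:69672580-69672639, minus strand, 189 before the start: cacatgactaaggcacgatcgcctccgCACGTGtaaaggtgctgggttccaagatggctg
Eif4h, chr5:134639473-134639532, minus strand, 96 before the start: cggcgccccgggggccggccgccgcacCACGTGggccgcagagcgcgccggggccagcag
Eif4g1, chr16:20672646-20672705, plus strand, 54 before the start: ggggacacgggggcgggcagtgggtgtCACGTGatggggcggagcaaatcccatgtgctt
Eif5a, chr11:69921428-69921487, minus strand, 74 before one of its RefSeq starts: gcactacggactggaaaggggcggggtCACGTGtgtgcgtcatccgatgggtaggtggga
Eef2, chr10:81176561-81176620, plus strand, 43 before the start: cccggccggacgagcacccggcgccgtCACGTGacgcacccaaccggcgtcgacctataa
A match often came without a call: Eif1b, Eif3f, Eif3k, Eif4g1, Eef2 and Eef2k hold the E-box and passed on neither scale. Eif3a, Eif4a1, Eif4e, Eif4h and Eif5a hold it and passed on the deposited scale, where 70.2% of all tested genes were called higher. Eif5a2 was under the filter. Eif4b passed on the deposited scale and has no match in its window.

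Eif2s1 (chromosome 12, 78862072 to 78887010), the alpha subunit whose phosphorylation slows initiation under stress, was at 0.555, 2.47 and 0 in WT against 8.32, 10.5 and 10.8 in Ela1-Myc. It passed on both scales (limma adjusted p = 0.000212; 0.0357 after scaling). The beta subunit Eif2s2 was at 6.71, 24.2 and 8.25 in WT against 27.01, 22.6 and 25.3 in Ela1-Myc, with overlap and no call (adjusted p = 0.123; 0.425 after scaling). Eif2s1 thus stood at 0.0828 and 0.102 of Eif2s2 in WT replicates 1 and 2, and at 0.308, 0.465 and 0.427 in Ela1-Myc.

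The gamma subunit is encoded on both sex chromosomes. The X copy Eif2s3x (94188709 to 94212651) was at 0, 5.48 and 0.256 in WT against 15.4, 25.9 and 26.7 in Ela1-Myc, and passed on both scales (limma adjusted p = 0.000309; 0.0332 after scaling). The Y copy Eif2s3y was at 1.41, 1.96 and 0 in WT against 3.16, 0.260 and 0.615 in Ela1-Myc, with overlap and no call (adjusted p = 0.866; 0.520 after scaling). The sex of the mice was not among the sample details used, and its part in the levels of both copies was not tested. After scaling, the calls of both Eif2s1 and Eif2s3x were lost without WT replicate 1 and without any one Ela1-Myc replicate, and that of Eif2s3x also without WT replicate 3, with adjusted p from 0.0560 to 0.121.

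eIF2B is the exchange factor that recharges eIF2. All 5 subunit genes lay higher in every Ela1-Myc library than in every WT library on the deposited scale, as did 75.3% of all tested genes. Eif2b1, Eif2b3 and Eif2b5 passed (60%, against 70.2% of all tested genes called higher). The catalytic subunit Eif2b5 was at 2.80, 8.55 and 2.91 in WT against 17.9, 15.3 and 13.7 in Ela1-Myc, a rise of 1.66 ± 0.507 log2 units (SE; limma adjusted p = 0.0101). Eif2b2 had the highest level, at 4.22, 13.2 and 4.97 in WT and 22.4, 13.7 and 17.0 in Ela1-Myc, and missed the threshold (limma adjusted p = 0.0531). Eif2b4 was at 3.59, 9.61 and 3.23 and at 13.3, 12.3 and 10.1 and did not pass (limma adjusted p = 0.0552). After scaling none of the 5 was called, none passed an unadjusted p of 0.05, the changes ran from -0.20 to 0.35 log2 units, and the groups overlapped for each. Within a library the highest eIF2B gene exceeded the lowest by 2.53 to 5.05 times in WT and by 3.04 to 4.35 times in Ela1-Myc.

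Of the kinases that phosphorylate eIF2 alpha, PERK had the highest level. Eif2ak3, which encodes PERK, the stress kinase of the endoplasmic reticulum, was at 4.49, 13.5 and 6.40 in WT against 28.7, 8.66 and 12.3 in Ela1-Myc. The groups overlapped and no call was made (limma adjusted p = 0.174; 0.425 after scaling), and Ela1-Myc replicate 1 stood above all other libraries. Eif2ak4, the amino acid sensor GCN2, was at 0.455, 0.745 and 0.838 in WT against 1.28, 1.201 and 1.90 in Ela1-Myc (limma adjusted p = 0.0609; 0.428 after scaling). Eif2ak1, the haem-regulated kinase HRI, was at 1.81, 4.72 and 2.48 and at 6.26, 6.51 and 7.07, a rise of 0.99 log2 units (limma adjusted p = 0.0363). That call was lost with a pseudocount of 0.1 (0.0537) and without any one library but WT replicate 2 (adjusted p from 0.0895 to 0.135). After scaling its change was -0.21 (adjusted p = 0.408). PERK to GCN2 ratios overlapped (exact two-sided permutation p = 0.8; 0.8 adjusted over 10 ratios).

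Eif2ak2, the interferon-inducible kinase PKR, did not reach the mean of 1. It was at 0.005, 0.059 and 0.126 in WT against 1.13, 1.26 and 2.77 in Ela1-Myc. In the fit of all 23099 symbols without a filter it passed on both scales (limma adjusted p = 0.0159; 0.0445 after scaling). Of all genes in that fit 36.7% were called higher on the deposited scale and 7.41% after scaling. PKR is known in many cell types, immune cells among them, and the macrophage markers were also higher in the Ela1-Myc libraries; their part in this result was not tested.

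eIF2A and eIF2D, which can place the initiator tRNA without eIF2, both rose on the deposited scale, as did 70.2% of all tested genes. Eif2a was at 1.41, 4.87 and 2.02 in WT against 10.5, 12.5 and 11.6 in Ela1-Myc, and the groups stayed apart after scaling (log2 change of 1.84, limma adjusted p = 0.00262; 0.62 and 0.0937 after scaling). Eif2d was at 1.65, 5.83 and 2.54 and at 11.1, 9.67 and 8.71, with log2 changes of 1.43 and 0.20 (limma adjusted p = 0.0117 and 0.563), and without Ela1-Myc replicate 1 the deposited-scale call was lost (0.0554).

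Eif1, which guards the choice of the start codon, was at 50.6, 110.7 and 54.7 in WT against 155.2, 107.8 and 124.2 in Ela1-Myc, with overlap and no call (limma adjusted p = 0.283). After scaling all 3 Ela1-Myc values of Eif1 lay below all WT values, at 92.9, 71.3 and 64.7 against 125, 118 and 101, and the change of -0.59 log2 units did not pass (adjusted p = 0.18). The ratio of Eif1 to its close copy Eif1b was 9.26 to 15.1 in WT and 8.20 to 13.4 in Ela1-Myc, with overlap (exact two-sided permutation p = 0.6; 0.667 adjusted over 10 ratios). Eif1ax, which encodes eIF1A on the X chromosome and holds the small subunit open for scanning, was at 2.28, 12.3 and 1.88 in WT against 30.0, 35.4 and 34.7 in Ela1-Myc. It rose by 2.78 ± 0.628 log2 units (SE; limma adjusted p = 0.00178), and after scaling the change was 1.47 ± 0.441 at an adjusted p of 0.0501. Eif1ax passed with the enzyme genes left out and equal totals, and with quantile normalization (limma adjusted p = 0.0343 and 0.0328). Eif1a and Eif1ad rose on the deposited scale and were not called on the median-of-ratios scale. Eif1a passed the filter through the Ela1-Myc libraries, which leaves its direction little freedom.

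eIF3, the largest initiation factor, had 12 subunit genes above 0 in all libraries. On the deposited scale 8 of the 12 rose (66.7%, against 63.5% of all tested genes above 0 in all libraries) and none fell. Eif3f, Eif3k, Eif3l and Eif3m did not pass. After scaling none of the 12 was called, against 7.63% higher and 10.0% lower among all genes of that kind. At an unadjusted p under 0.05, 3 of the 12 were higher after scaling, against 1134 of all 6995 genes of that kind. Eif3d, the subunit that can bind the cap itself, went from 2.72, 16.7 and 2.00 in WT to 54.1, 43.7 and 39.3 in Ela1-Myc, by 2.99 ± 0.691 log2 units (SE; limma adjusted p = 0.00203; 0.0576 after scaling). It passed with the enzyme genes left out and equal totals, and with quantile normalization (limma adjusted p = 0.0331 and 0.0333). Eif3k had the highest level, at 44.8, 151.4 and 65.4 in WT against 209.9, 165.6 and 130.2 in Ela1-Myc, and did not pass (limma adjusted p = 0.216; 0.428 after scaling). Eif3l, whose product pairs with that of Eif3k at the edge of the complex, was called on neither scale, going from 17.8, 34.5 and 21.4 to 57.4, 52.7 and 45.6 (limma adjusted p = 0.147; 0.353 after scaling).

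The highest eIF3 gene exceeded the lowest by 26.6, 13.0 and 82.9 times in WT and by 11.8, 10.2 and 6.88 times in Ela1-Myc, and the SD of the log2 levels over the 12 genes was 1.503, 1.10 and 1.77 in WT against 0.936, 0.990 and 0.766 in Ela1-Myc. Relative to the median of the 12 genes in the same library, Eif3a, Eif3k, Eif3l and Eif3m lay lower in every Ela1-Myc library than in every WT library, Eif3d lay higher, and 7 genes overlapped. Eif3k stood 3.58, 2.44 and 2.48 log2 units above that median in WT and 1.90, 1.79 and 1.42 above it in Ela1-Myc. Eif3a, a scaffold of the complex, stood at 1.18, 0.789 and 6.74 times Eif3b in WT against 0.426, 0.551 and 0.567 times in Ela1-Myc, without overlap (exact two-sided permutation p = 0.1; 0.333 adjusted over 10 ratios). The log2 difference of -1.85 was -0.92 without WT replicate 3 and -2.46 without WT replicate 2. These relative levels do not depend on the scale of a library, while low WT values such as Eif3b at 0.789 in WT replicate 3 enter them directly.

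**Figure D3:**
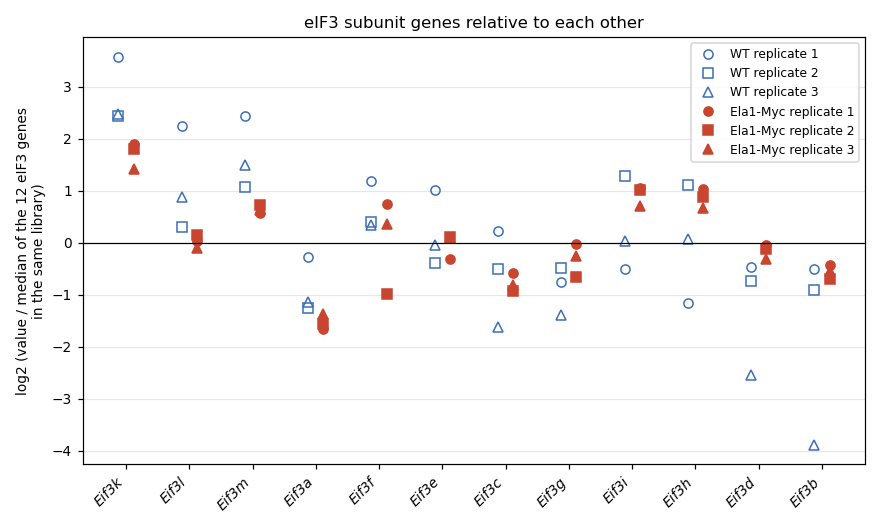
Log2 of the value of each eIF3 subunit gene over the median of the 12 genes in the same library, open blue for WT and filled red for Ela1-Myc, with genes ordered by the difference between the group means. Eif3k, Eif3l, Eif3m and Eif3a lie lower in all 3 Ela1-Myc libraries, Eif3d lies higher, and WT replicate 3 has the lowest points, at Eif3d and Eif3b.

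Eif6 (chromosome 2, 155819837 to 155826925), which keeps the large ribosomal subunit from joining too early and serves in its making, was at 0.231, 5.71 and 0 in WT against 21.2, 20.3 and 17.5 in Ela1-Myc. It passed on both scales (limma adjusted p = 0.000382; 0.0401 after scaling), and after scaling the call was lost without WT replicate 1 or 3 or any one Ela1-Myc replicate (adjusted p from 0.0873 to 0.130). Eif5a (chromosome 11, 69916712 to 69921958), the carrier of the polyamine-derived residue hypusine, was at 0, 110.2 and 0.328 in WT against 305.5, 194.8 and 276.0 in Ela1-Myc. It passed on the deposited scale only (limma adjusted p = 0.00249; 0.0822 after scaling). WT replicates 1 and 3 lay at or near 0 while WT replicate 2 did not. Eif5, the GTPase activator of eIF2, rose by 1.49 log2 units (limma adjusted p = 0.0252; 0.745 after scaling). Eif5b, the GTPase of subunit joining, was at 1.30, 3.56 and 1.88 and at 4.89, 3.40 and 5.07, and did not pass (limma adjusted p = 0.0606; 0.221 after scaling).

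The highest mean levels of all members were those of Eef1a1, Eef2 and Eef1g. Eef1a1 (chromosome 9, 78478454 to 78481724) was at 299, 1852 and 658 in WT against 3117, 2593 and 2247 in Ela1-Myc. It rose by 1.88 ± 0.751 log2 units (SE; limma adjusted p = 0.0374), a call lost without any one library but WT replicate 2 (adjusted p from 0.0891 to 0.125). After scaling WT replicate 2 exceeded all 3 Ela1-Myc libraries (change 0.36, adjusted p = 0.543). Its paralog Eef1a2, a gene of muscle and neurons, was at 0, 0.0334 and 0 in WT against 0.172, 0.0532 and 0.229 in Ela1-Myc, under the filter. Eef2, the translocase, was at 90.5, 448 and 172 and at 870, 505 and 438, with overlap and no call (limma adjusted p = 0.0985; 0.910 after scaling). Eef2 stood at 0.303, 0.242 and 0.261 of Eef1a1 in WT against 0.279, 0.195 and 0.195 in Ela1-Myc (permutation test, exact, two-sided, p = 0.3; 0.5 adjusted over 10 ratios).

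The exchange factor of eEF1A is made of the products of Eef1b2, Eef1d and Eef1g. All 3 genes rose on the deposited scale, where 70.2% of all tested genes rose. Eef1g was at 19.8, 183.8 and 33.1 in WT against 378.3, 329.1 and 292.7 in Ela1-Myc, a rise of 2.71 ± 0.903 log2 units (SE; limma adjusted p = 0.016; 0.148 after scaling). The deposited-scale call was lost without WT replicate 1 or any one Ela1-Myc replicate (adjusted p from 0.0532 to 0.0654). Eef1b2 and Eef1d rose by 2.26 and 2.29 (limma adjusted p = 0.0261 and 0.0135), without a call after scaling. Eef1d kept a narrow ratio to Eef1g in Ela1-Myc, at 0.191, 0.187 and 0.184, against 0.254, 0.183 and 0.281 in WT (exact two-sided permutation p = 0.4; 0.5 adjusted over 10 ratios). Eef1b2 to Eef1g ratios also overlapped (exact two-sided permutation p = 0.3; 0.5 adjusted over 10 ratios). Eef1e1, a scaffold of the multi-tRNA synthetase complex and not an elongation factor, was at 1.05, 1.92 and 0 in WT against 5.97, 7.57 and 7.71 in Ela1-Myc (limma adjusted p = 0.000431; 0.103 after scaling). It passed the filter through the Ela1-Myc libraries, which leaves its direction little freedom.

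Eef2k, the kinase that switches eEF2 off, was at 1.46, 3.92 and 1.37 in WT against 4.64, 3.85 and 4.39 in Ela1-Myc. The groups overlapped and it passed on neither scale (limma adjusted p = 0.065; 0.297 after scaling, with log2 changes of 0.79 and -0.31). The ratio of Eef2k to Eef2 overlapped as well (exact two-sided permutation p = 0.4; 0.5 adjusted over 10 ratios).

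**Figure D4:**
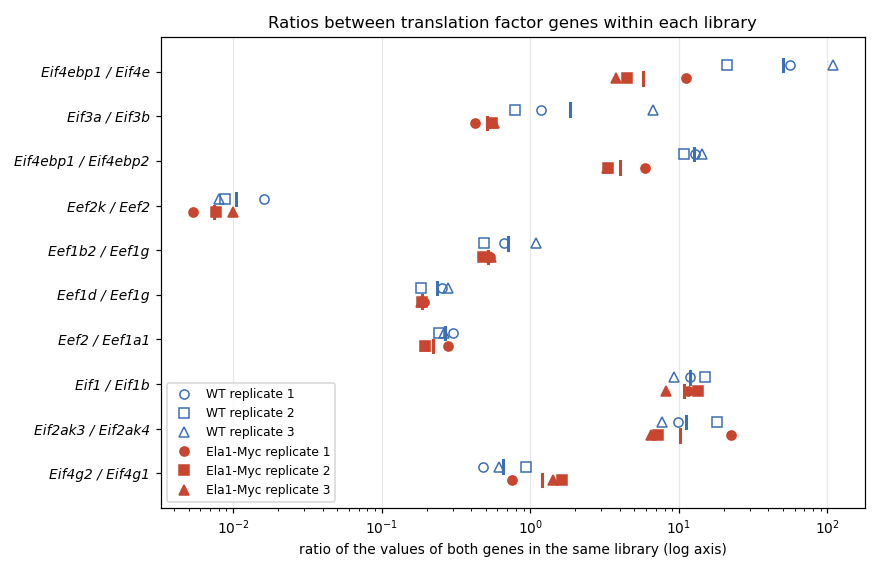
Ratio of the values of 2 genes in the same library (log axis) for the 10 of 15 chosen pairs with a value above 0 in all libraries, open blue for WT and filled red for Ela1-Myc, with ticks at the geometric mean of each group. Eif4ebp1 over Eif4e, Eif4ebp1 over Eif4ebp2 and Eif3a over Eif3b lie lower in all 3 Ela1-Myc libraries, and the other 7 ratios overlap.

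Of the 15 ratios chosen, 5 had a 0 in a WT library and were given no test. None of the other 10 could reach an adjusted p under 0.05 with 3 libraries a group. The members under the filter besides Eif2ak2 and Eef1a2 were Eif4e1b, Eif4e3, Eif5a2 and the Argonautes Eif2c2, Eif2c3 and Eif2c4. Eif4e3, a cap-binding paralog, was at 0.0713, 0.1005 and 0.0719 in WT against 0.662, 1.56 and 1.95 in Ela1-Myc. Without a filter it passed on the deposited scale (limma adjusted p = 0.0196; 0.0754 after scaling), where 36.7% of all genes were called higher. Eef1a2, Eif5a2, Eif2c2 and Eif2c3 passed there as well (limma adjusted p from 0.0212 to 0.0438) and did not pass after scaling. Eif4e1b and Eif2c4 passed on neither scale. Eif4e1b, a paralog of oocytes, stayed at 0.0170 or less in every library. The one tested Argonaute, Eif2c1, was at 0.197, 0.747 and 0.492 in WT against 1.65, 1.25 and 2.87 in Ela1-Myc, a rise of 0.96 log2 units (limma adjusted p = 0.00739; 0.316 after scaling). With a pseudocount of 0.1, which weighs less on values this low, the change was 1.85. Eif2c1 averaged under 1 in WT and passed the filter through the Ela1-Myc libraries, which leaves its direction little freedom.

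Other genes of translation and its control, some of them mitochondrial, were read from a list of 49. Of these 48 were in the files and 42 were tested. On the deposited scale 24 of the 42 rose (57.1%, against 70.2% of all tested genes) and none fell (median log2 change 1.14). After scaling 4 were higher and 3 lower (9.52% and 7.14%, against 18.1% and 7.95% of all tested genes; median 0.08). The 3 lower genes were Pdcd4, Akt1 and Rps6kb1. Pdcd4, an inhibitor of the eIF4A helicase, was at 15.4, 16.7 and 19.0 in WT against 5.82, 6.27 and 6.99 in Ela1-Myc on the median-of-ratios scale, with no overlap and a change of -1.29 log2 units (limma adjusted p = 0.0101). On the deposited scale its groups overlapped, at 6.25, 15.6 and 10.3 and at 9.72, 9.48 and 13.4 (adjusted p = 0.886). Akt1, a growth factor kinase upstream of mTOR, and Rps6kb1, the S6 kinase below mTOR, fell by 1.36 and 0.65 log2 units after scaling (limma adjusted p = 0.0204 and 0.0366), against deposited-scale changes of 0.10 and 0.36 (adjusted p = 0.887 and 0.281).

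The 4 higher genes were Tsfm, Gfm1, Dph1 and Dph2. Tsfm and Gfm1 encode elongation factors of mitochondria, and changed by 0.80 and 0.98 log2 units after scaling (limma adjusted p = 0.0291 and 0.0414). Dph1 and Dph2 encode the enzyme pair that begins diphthamide, the modified residue of eEF2. Dph1 was at 1.53, 1.44 and 0.814 in WT against 3.19, 3.86 and 2.35 in Ela1-Myc after scaling (limma adjusted p = 0.0335). Dph2 was at 0.216, 0.275 and 0.209 in WT against 0.815, 1.63 and 1.19 in Ela1-Myc after scaling (limma adjusted p = 0.0217). Both averaged under 1 in WT on the deposited scale and passed the filter through the Ela1-Myc libraries, which leaves their direction little freedom. Eef2 itself did not pass on either scale. Dhps and Dohh, the enzymes that make hypusine on eIF5A, rose on the deposited scale (limma adjusted p = 0.00985 and 0.0112) and did not pass after scaling (0.824 and 0.316). The poly(A)-binding protein gene Pabpc1 went from 10.1, 35.4 and 1.43 in WT to 101.6, 82.1 and 96.7 in Ela1-Myc (limma adjusted p = 0.00494; 0.143 after scaling), and Mtor rose by 0.71 log2 units on the deposited scale (adjusted p = 0.0345) and lay at -0.17 after scaling (0.428).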

How the data were processed

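Polyadenylated RNA of mouse pancreas was measured in 3 WT and 3 Ela1-Myc stranded libraries. Per the file headers, the authors deposited an adjusted FPKM for each gene, 1 file a library. The submitters' processing notes list GRCm38 with Cufflinks 2.0.2, TopHat2 2.0.4, Bowtie, affy, FastQC 0.9.4 and CASAVA 1.8. The adjustment of the FPKM and the depth are not stated there, so no counting interval is given. Of the 6 libraries 5 are labelled with an RNA integrity number below the 8.5 that the protocol names as its limit. ERCC spike-in RNA was added to the total RNA, per the labels' protocols; whether it set the scale of the deposited values is not stated.

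Values were divided by 100000 and, of rows sharing a symbol, that with the highest mean was used. Genes averaging 1 or more were compared by limma (3.58.1, R 4.3.3) on log2(value + 1) with a trend in the prior variance, without covariates; the threshold was a two-sided p of 0.05 after Benjamini-Hochberg adjustment. The fit was made as deposited and after median-of-ratios scaling. Changes on log2(value + 1) understate those of low genes. Ratios within a library were compared by an exact permutation test (scipy 1.17.1). The fit was tested on simulated data. Alternatives were the pseudocount, filter, scaling, listed zeros, library weights and each library left out. Members, lists and ratios were chosen with earlier results of these data known. Values in every library are given for members called after scaling, for those with the highest mean or the largest or smallest change of their group, and for 19 genes named whatever their result. Eif4b, Eif4h, Eif4ebp3, Eef1e1, Eef1b2, Eef1d, members under the filter and the other pathway genes were named after their values were seen. Gene starts are 1-based. Matplotlib 3.10.9 (Python 3.11.15) drew the figures.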

Additional observations from a re-analysis of the deposited data

How the results depend on the processing

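On the deposited scale 37 members were higher (70.2% of all tested genes) and 0 lower. The counts were 19 higher (38.3% of all genes) with a pseudocount of 1 on the undivided values, 8 higher and 4 lower (11.3% and 19.7%) with quantile normalization, 8 and 1 (17% and 5.98%) with the enzyme genes left out and equal totals, 4 and 1 (18.1% and 7.95%) with median-of-ratios scaling, and 55 higher (86%) with array weights, where Eif1, Eif4g1 and Eef2 also passed (limma adjusted p = 0.00569, 0.000449 and 0.0014). Leaving out 1 library gave 21 to 54 higher (49.5% to 81.1%), and leaving out WT replicates 1 and 3 together, chosen after seeing the data, gave 16 (31%). Settings were read gene by gene only for the 32 tested members chosen to have values given in every library. Among these 32, the pseudocount of 1 on undivided values ended the deposited-scale calls of Eef1g, Eif2ak1, Eif2c1, Eif4g2, Eif4a1, Eef1a1, Eif5a, Eif2s3x, Eif6 and Eif2s1 (limma adjusted p from 0.05001 to 0.158). Calls of members outside the 32, such as Eif4b, Eif4h, Eef1b2, Eef1d and Eef1e1, were not followed singly there. On the median-of-ratios scale 4 members were higher and 1 lower. The counts were 0 higher (10.5%) with a pseudocount of 0.1, and 0 and 0 (4.06% and 6.15%) with a pseudocount of 1 on the undivided values. Without a filter 1 and 0 of 64 were called (7.41% and 2.48%). The 1 was Eif2ak2, which the main fit did not test. The calls of Eif2s1, Eif2s3x, Eif4a1, Eif6 and Eif4ebp1 were all lost there (limma adjusted p from 0.0606 to 0.0992). With a mean of at least 5, 1 of 44 was higher (11.1%). Quantile normalization gave 8 and 4, and leaving out the enzyme genes gave 8 higher. The deposited scale gave 37 and 0, and array weights gave 11 higher (24.7%). Leaving out 1 library gave 0 to 18 higher (5.6% to 20.7%) and 0 to 1 lower (2.18% to 7.2%), and without both WT replicates 1 and 3 the counts were 0 and 0 (11.3% and 6.14%).

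Among the same 32 members, some log2 changes that were positive on the deposited scale turned negative under other scalings. With quantile normalization these were Eif4ebp1 -1.42, Eif1 -0.66, Eif2s2 -0.52, Eif2s3y -1.09, Eif2ak3 -0.72, Eif2ak1 -0.54, Eif2ak4 -0.77, Eif2d -0.099, Eif2b2 -0.34, Eif2b4 -0.46, Eif3k -0.45, Eif3l -0.52, Eif4g1 -0.49, Eif5b -0.67, Eef2k -0.65, Eif2c1 -0.32, Eif4a2 -0.37, Eef2 -0.19. With the enzyme genes left out they were Eif4ebp1 -1.22, Eif1 -0.56, Eif2s2 -0.29, Eif2s3y -0.55, Eif2ak3 -0.43, Eif2ak1 -0.18, Eif2ak4 -0.19, Eif2b2 -0.070, Eif2b4 -0.17, Eif3k -0.37, Eif3l -0.34, Eif4g1 -0.25, Eif5b -0.29, Eef2k -0.29, Eif4a2 -0.17. With median-of-ratios scaling they were Eif4ebp1 -1.26, Eif1 -0.59, Eif2s2 -0.33, Eif2s3y -0.54, Eif2ak3 -0.46, Eif2ak1 -0.21, Eif2ak4 -0.21, Eif2b2 -0.10, Eif2b4 -0.20, Eif3k -0.40, Eif3l -0.38, Eif4g1 -0.28, Eif5b -0.32, Eef2k -0.31, Eif4a2 -0.21. Outside the 32 members, Eif1b, Eif3m and Eif4ebp3 also turned negative with median-of-ratios scaling, to -0.42, -0.29 and -0.43. Leaving out 1 library turned Eif4ebp1 to -0.042 without WT replicate 1 and to -0.069 without Ela1-Myc replicate 1, and Eif2s3y to -0.39 without WT replicate 3; the highest values were 0.58 for Eif4ebp1 without WT replicate 2 and 0.43 for Eif2s3y without Ela1-Myc replicate 2. The log2 ratio difference of Eif1 to Eif1b turned to 0.042 and 0.069 without WT replicate 2 or Ela1-Myc replicate 3, and that of Eif2ak3 to Eif2ak4 to 0.23, 0.12 and 0.20 without WT replicate 2, Ela1-Myc replicate 2 or Ela1-Myc replicate 3; the lowest value of the latter was -0.70 without Ela1-Myc replicate 1. The cause was not tested. No paired analysis was possible because the replicate numbers used here were given in accession order and the labels hold none. Depth is unknown, so whether a listed 0 reflects depth was not tested.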
